A study of Mus musculus with 6 samples.

Results

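The B cell identity genes were 9 mRNAs that mark B lymphocytes: Cd79a, Cd79b, Ms4a1, Pax5, Ebf1, Blk, Cd22, Fcer2a and Cr2. They were taken by symbol, with earlier results of these data known, and all 9 were among the 21899 genes listed in the deposited tables. They were read in 6 bulk mRNA libraries of induced regulatory T cells (iTregs), T cells turned into suppressive Foxp3-expressing cells in culture. There were 3 libraries from control mice (iWT, here WT) and 3 from Dlst-Treg iKO mice (here KO), in which Dlst, a subunit of the 2-oxoglutarate dehydrogenase complex, is targeted in Treg cells. Spleen CD4+ T cells of both genotypes spent 2 days in polarising culture with 4-hydroxytamoxifen, the ligand of tamoxifen-inducible Cre. Cells were then sorted for CD4 together with the FoxP3-GFP and tdTomato reporters. The driver of recombination, the strain, age and sex of the mice, and whether samples came from separate animals or cultures are not stated in the labels. The p-values therefore measure only how far these samples spread, and part of that may be technical. The question was whether B cell mRNAs, which a CD4+ FoxP3-GFP+ sort should leave out, differed between the KO and WT libraries.

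B cells recognise antigen through membrane immunoglobulin, which signals through the paired chains encoded by Cd79a and Cd79b and through Src-family kinases such as the product of Blk. Pax5 and Ebf1 encode the transcription factors that commit cells to the B lineage and keep them there. Ms4a1 encodes CD20, Cd22 an inhibitory co-receptor that binds sialic acid, Cr2 the complement receptor CD21 and Fcer2a the low-affinity IgE receptor CD23. B cells are abundant in the spleen, the source of the T cells. Some members are not confined to B cells: Blk is also known from some T cells and plasmacytoid dendritic cells, Ebf1 from stromal cells and Cr2 from follicular dendritic cells.

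The members lie apart in the genome, apart from pairs that share a chromosome. In GENCODE M21 (GRCm38), which need not be the annotation the authors used, chromosome 7 holds Cd79a (plus strand, 24897381 to 24902197) and Cd22 (minus strand, 30865402 to 30880342). Chromosome 11 holds Ebf1 (plus strand, 44617317 to 45008091) and Cd79b (minus strand, 106311341 to 106314762). The other 5 are on minus strands: Cr2 on chromosome 1 from 195136811 to 195176716, and Pax5 on chromosome 4 from 44524757 to 44710487. Fcer2a is on chromosome 8 from 3681737 to 3694175, Blk on chromosome 14 from 63372836 to 63417037, and Ms4a1 on chromosome 19 from 11249675 to 11266241. All 9 are protein-coding. Exons of Pax5 and Cd22 overlap exons of antisense or unclassified genes that the tables do not list.

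The promoters of the 9 members were searched for letters bound by B lineage factors, as a description. Whether such letters bear on the levels in these libraries was not tested. Sequences of 250 bases before a RefSeq start (GRCm38.p6) were matched for 6 of the 9 members, in 9 windows, and not for Cd79b, Ms4a1 and Blk. The EBF1 letters CCCNNGGG stood in 1 window, that of Cd22, and in 11.8% of all 32851 windows of this length. The PU.1 core GAGGAA stood, on the opposite strand, in the windows of Cd79a and of 1 of the Ebf1 starts, and in 23.3% of all windows. The octamer ATGCAAAT, in 1.6% of all windows, stood in none of the 9. Both strands were searched for each motif, and no match overlapped another. The windows of Cd79a and Cd22 are shown, less the bases that GENCODE M21 counts as exon, since each holds a match, given in capitals. They are 134 bases at chr7:24897247-24897380 on the plus strand and 148 bases at chr7:30879029-30879176 on the minus strand, both 5′ to 3′.
Cd79a: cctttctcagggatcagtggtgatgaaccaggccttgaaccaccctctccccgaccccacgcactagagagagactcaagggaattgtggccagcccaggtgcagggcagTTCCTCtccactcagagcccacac
Cd22: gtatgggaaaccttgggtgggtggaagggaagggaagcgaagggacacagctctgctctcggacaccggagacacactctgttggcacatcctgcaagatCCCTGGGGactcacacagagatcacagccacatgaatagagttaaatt
The Cd22 window lies inside the Cd22 gene as GENCODE M21 places it, so the bases shown for Cd22 are intronic in that annotation. The Ebf1 window with a match likewise lies inside its gene. A match is a description of letters, and a window with no match says nothing of the factor.

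The libraries held from 33590510 to 49772670 estimated counts. Levels are given as CPM, counts scaled to library size with TMM factors, a correction for library composition. Dlst, the targeted gene, stood at 161, 149 and 149 CPM in the WT libraries and at 125, 129 and 129 CPM in the KO libraries, each in the order of replicates 1 to 3 that is kept below. Its log2 fold change was -0.26 (SE 0.05, edgeR adjusted p = 0.0894). T cell genes of the labelled cell type were present in every library, with Cd3e from 289 to 327 CPM. Cd4 stood at 507, 506 and 522 CPM in WT and at 465, 445 and 432 CPM in KO. Foxp3 stood at 154, 202 and 198 CPM in WT and at 231, 207 and 227 CPM in KO. Neither Cd4 nor Foxp3 overlapped between groups, and neither passed in edgeR (adjusted p = 0.151 and 0.305). KO replicate 1 stood apart in neutrophil and macrophage genes, and WT replicate 1 in the B cell genes described here. Within WT, replicate 1 stood apart in neutrophil genes as well. Their summed CPM there was 4.5 times the mean of the other WT libraries, against 4.04 times for the B cell genes.

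B cell identity mRNAs were present in all 6 libraries, and a single WT library held far more of them than any other. Summed over the 9 genes, the level was 105, 34.5 and 17.6 CPM in WT and 36.8, 32.8 and 33.6 CPM in KO. The 3 KO libraries thus lay close together, between the extremes of WT, and WT replicate 2 lay among them. WT averaged 52.4 ± 46.5 CPM and KO 34.4 ± 2.13 CPM (SD, n = 3 each), or 0.656 times as much in KO. The coefficient of variation was 88.7% in WT and 6.2% in KO. The difference of -18.0 CPM did not exceed the spread between replicates (exact two-sided permutation p = 0.8, where 0.1 is the smallest that 3 against 3 can give). Without WT replicate 1 its sign turned, to 8.38 CPM more in KO (exact permutation p = 0.6). In bulk libraries, fewer cells of a type and less RNA per cell cannot be told apart.

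**Figure D1:**
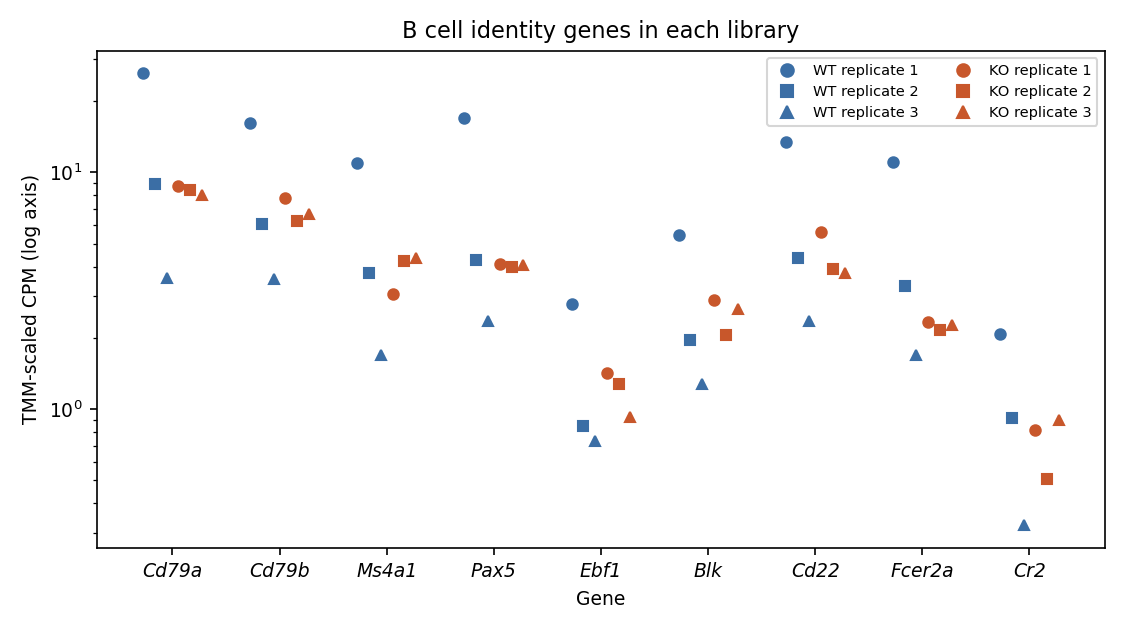
TMM-scaled CPM (log axis) of each of the 9 B cell identity genes, 1 point per library, WT in blue and KO in orange. WT replicate 1 is the highest and WT replicate 3 the lowest point for all 9 genes, and the KO points lie between them.

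Of the antigen receptor's signalling chains, Cd79a stood at 26.2, 8.95 and 3.59 CPM in WT and at 8.80, 8.45 and 8.03 CPM in KO. The KO values of Cd79a fell within a 1.1-fold range, while those of WT spanned 7.3-fold, and the groups overlapped. Cd79b, its partner, was at 16.2, 6.07 and 3.55 CPM in WT and 7.77, 6.24 and 6.64 CPM in KO. The Cd79a log2 fold change, KO minus WT, was -0.61 (SE 0.66, 95% interval -2.23 to 1.01), and that of Cd79b was -0.31 (SE 0.52, -1.57 to 0.95). Blk, the kinase, was at 5.44, 1.96 and 1.27 CPM in WT and 2.89, 2.06 and 2.65 CPM in KO. Its log2 fold change was the nearest to 0 of the 9, at -0.17 (SE 0.51, edgeR adjusted p = 0.903).

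Of the lineage factors, Pax5 had the steepest excess in WT replicate 1. Pax5 stood at 17.0, 4.28 and 2.35 CPM in WT and at 4.11, 4.00 and 4.07 CPM in KO. The 3 KO values of Pax5 agreed within 1.03-fold, and WT replicate 1 was 5.13 times the mean of the other WT libraries. The Pax5 log2 fold change was -0.94 (SE 0.71, 95% interval -2.69 to 0.80). Ebf1, which acts upstream of Pax5 in B cell development, was at 2.78, 0.852 and 0.732 CPM in WT and 1.42, 1.28 and 0.927 CPM in KO. All 3 KO values of Ebf1 lay above WT replicates 2 and 3 and below WT replicate 1, and its log2 fold change was -0.24 (SE 0.52, -1.45 to 0.96).

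The surface receptors of mature B cells also had WT replicate 1 highest and WT replicate 3 lowest, with the libraries between them in varying order. Ms4a1 was at 11, 3.77 and 1.70 CPM in WT and 3.07, 4.21 and 4.35 CPM in KO. Cd22 was at 13.5, 4.36 and 2.36 CPM in WT and 5.60, 3.91 and 3.74 CPM in KO. In both genes WT replicate 2 lay inside the KO range. Cr2 stood at 2.08, 0.916 and 0.323 CPM in WT and 0.818, 0.508 and 0.901 CPM in KO. It rested on as few as 15 counts, in WT replicate 3 (exact 95% Poisson interval 8.4 to 24.7, counting error only). Their log2 fold changes were -0.49 (SE 0.63) for Ms4a1, -0.59 (SE 0.62) for Cd22 and -0.54 (SE 0.61) for Cr2.

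Fcer2a had the largest difference of the 9. Its level was 11.1, 3.32 and 1.69 CPM in WT and 2.34, 2.15 and 2.26 CPM in KO. Both WT replicates 1 and 2 were above all KO libraries and WT replicate 3 below them. The Fcer2a log2 fold change was -1.24 (SE 0.65, 95% interval -2.80 to 0.32), which did not pass (edgeR quasi-likelihood test, adjusted p = 0.428). Fcer2a and Cd22 had estimated counts with decimals, so reads shared with other features may enter their levels. The other 7 had whole-number counts in every library.

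On the TPM scale, which allows genes to be compared per length, Cd79a and Cd79b were the 2 highest members in every library. In KO, Cd79a ran from 9.55 to 10.5 TPM and Cd79b from 9.05 to 11.3 TPM, so their order did not differ beyond their spread. Cd22 (1.80 to 3.57 TPM in KO), Ms4a1 (1.74 to 2.45), Blk (1.54 to 2.17) and Fcer2a (1.82 to 2.03) overlapped in the middle. Pax5 (0.992 to 1.17), Ebf1 (0.298 to 0.586) and Cr2 (0.228 to 1.06) were lowest in KO. For comparison, the 12 genes of the T cell list summed to between 4120 and 4600 TPM, and the 9 B cell genes to between 16.5 and 90.3 TPM.

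None of the members passed the test of KO against WT. All 9 had enough counts to be tested, and 0 of 9 had an adjusted p under 0.05 in edgeR's quasi-likelihood test, against 0.674% of the 12768 genes tested (0.454% higher and 0.219% lower in KO). An unadjusted p under 0.05 was also reached by 0 of 9, against 15.1% of all tested genes, and 0 of 9 passed with DESeq2 or with limma on TPM. Groups without overlap were found for 0 of 9, against 22.8% of all tested genes. All 9 log2 fold changes were below 0, against 50.9% of tested genes, from -1.24 to -0.17 with a median of -0.54, where the median of all tested genes was -0.0029. Every 95% interval spanned 0. Standard errors ran from 0.51 to 0.71. Only Pax5 (-0.94, SE 0.71) and Fcer2a (-1.24, SE 0.65) had a point estimate larger in size than its own standard error. With the replicate number as a block, 177 genes in all were called, against 86 without it, and 0 of the 9 members.

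The common sign rested on WT replicate 1. Without that library 8 of 9 log2 fold changes were above 0, from -0.16 for Fcer2a to 0.65 for Blk, with a median of 0.43 and adjusted p from 0.31 to 0.843. Without any other single library all 9 stayed below 0. Leaving out WT replicate 3, the lowest library, moved the median to -0.99 (adjusted p from 0.241 to 0.666).

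**Figure D2:**
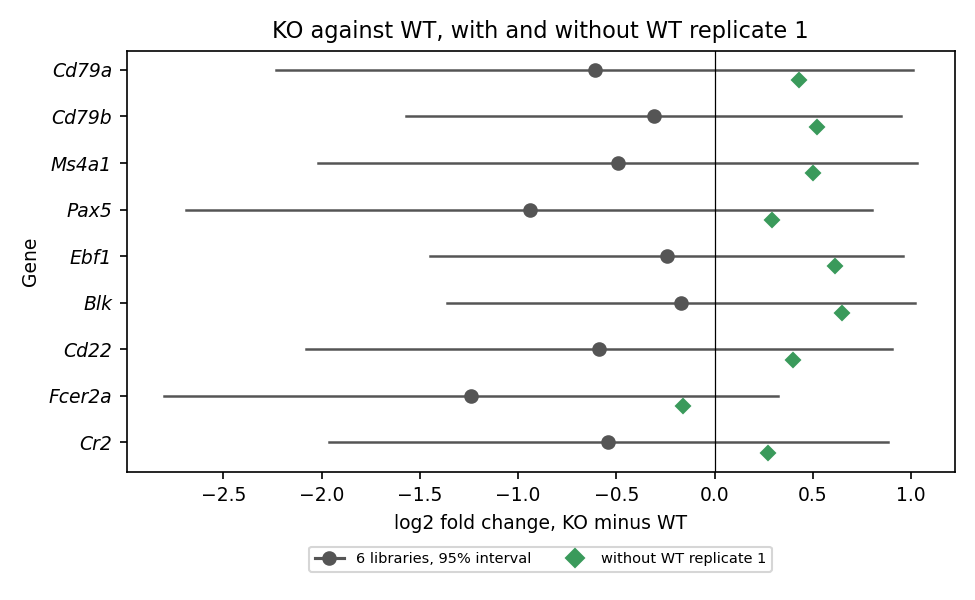
Log2 fold change of each B cell identity gene, KO minus WT, from 6 libraries (grey circles with 95% intervals) and without WT replicate 1 (green diamonds). All grey intervals cross 0, and 8 of the 9 diamonds lie above 0.

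Within WT, the members fell in a fixed order of libraries. WT replicate 1 was the highest of the 6 libraries and WT replicate 3 the lowest for 9 of 9 members, an order found for 3.26% of the tested genes (24.6% had WT replicate 1 highest, whatever the lowest). In WT replicate 1 each member was between 3.36 times (Cd79b) and 5.13 times (Pax5) the mean of WT replicates 2 and 3. All 9 were at least 2 times that mean, as were 2.53% of the tested genes. For all 9 the 3 KO libraries lay between WT replicates 1 and 3. These patterns were picked after the values were seen and are given as descriptions.

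The mix of the 9 mRNAs varied less than their total, which changed 5.99-fold between WT replicates 1 and 3. Cd79a made up from 20.5 to 25.9% of the summed counts of the 9 genes, Cd79b from 15.4 to 21.1% and Cr2 from 1.55 to 2.68%. For Fcer2a the shares lay apart by group. Its share was 10.5%, 9.64% and 9.68% in WT and 6.34%, 6.55% and 6.75% in KO. The 95% Wilson intervals of these shares reached down to 7.84% in WT (replicate 3) and up to 8.24% in KO (replicate 3), so some of them overlapped. Such overlap is not a test of the difference between 2 libraries. Its mean share was 9.94 ± 0.485% in WT and 6.55 ± 0.205% in KO (SD, n = 3 each), without overlap, and the exact permutation p of 0.1 was the smallest the design can give. The share of Pax5 did not overlap either, at 14.0 ± 1.97% in WT and 11.8 ± 0.551% in KO (exact permutation p = 0.1), while those of the other 7 overlapped. On the TPM scale the share of Fcer2a still did not overlap (9.02 to 11.4% in WT, 5.66 to 6.94% in KO), and that of Pax5 did. Over all tested genes, the ratio to the summed level of the members did not overlap in 2.08%. That sum spans a wider range in WT than in KO, so the ratio of a gene that does not move with the members overlaps almost by construction, and nothing is read from this percentage. With 9 shares examined, neither difference can pass a correction in this design.

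**Figure D3:**
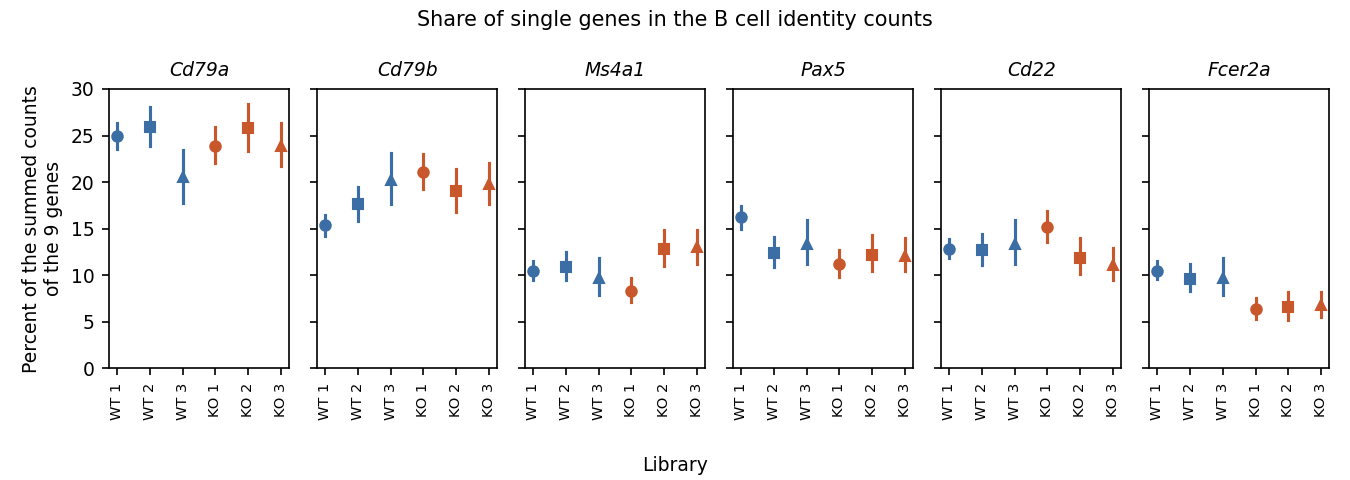
Share of 6 of the genes in the summed estimated counts of the 9 B cell identity genes, 1 point per library with its 95% Wilson interval. Cd79a stays between 20.5 and 25.9%, and the KO shares of Fcer2a, 6.34 to 6.75%, lie below its WT shares, 9.64 to 10.5%.

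Other genes of the B lineage, from lists taken with the members, split into those that followed the 9 and those that did not. In the list of B cell receptor signalling 0 of 18 tested genes passed in edgeR (4 at an unadjusted p under 0.05, 1 with DESeq2, 0 with limma), with a median log2 fold change of -0.22. Of these, 8 were at least 2 times higher in WT replicate 1 than the mean of the other WT libraries. Blnk, the adaptor that links the receptor to calcium signalling, was among them, at 6.08, 2.00 and 0.990 CPM in WT and 2.08, 1.85 and 2.03 CPM in KO. The 2 genes of the list with the highest TPM went another way: Ptpn6, a phosphatase common to blood cells, ran from 231 to 258 CPM and Cd37, a tetraspanin, from 112 to 134 CPM. Cd72, a B cell co-receptor gene, was lowest in WT replicate 1, with a log2 fold change of 0.91 (SE 0.19), and missed the threshold in edgeR (adjusted p = 0.0894). Blnk and Cd72 were chosen after their values were seen.

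Among immunoglobulin chains 0 of 9 tested genes passed in edgeR (1 unadjusted, 1 with DESeq2, 0 with limma; median -0.36), and 3 more were too low to test. Of the 9, 6 were at least 2 times higher in WT replicate 1 than the mean of the other WT libraries. Igkc, the kappa light chain, followed the members, with 39.0, 11.7 and 5.96 CPM in WT and 11.4, 9.53 and 11.2 CPM in KO. Ighm, the mu heavy chain, varied less, with 187, 133 and 103 CPM in WT and 159, 127 and 133 CPM in KO. Its highest and lowest libraries were again WT replicates 1 and 3. Markers of antibody-secreting plasma cells differed among themselves. Tnfrsf17 was at 0 in every library, Jchain had 2 to 7 counts and Sdc1 31 to 57. Mzb1, too low to test, was estimated at 35.95, 30.77 and 3.94 counts for WT, against 4.94, 5.63 and 0 for KO. Prdm1, the plasma cell regulator that T cells also express, stood at 3.61, 3.84 and 3.14 CPM in WT and 2.64, 2.72 and 2.57 CPM in KO, without overlap. Its log2 fold change of -0.42 (SE 0.15) missed the threshold in edgeR (adjusted p = 0.268). Xbp1, a factor of secretory cells, ran from 173 to 202 CPM. In that list 0 of 4 tested genes passed in edgeR (1 unadjusted, 0 with DESeq2 or limma).

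Of 13 tested B lineage transcription factors 0 passed in edgeR (4 unadjusted, 1 with DESeq2, 0 with limma; median -0.07). At least 2 times the mean of the other WT libraries was reached in WT replicate 1 by 3 of the 13. Spib, a B cell Ets factor chosen after its values were seen, was at 10.5, 2.83 and 1.87 CPM in WT and 3.22, 3.64 and 3.45 CPM in KO. Irf4 and Irf8, factors that activated T cells also express, were at 840 to 1220 CPM and 874 to 1150 CPM, and Irf8 was lowest in WT replicate 1. Among genes of mature B cell surface and survival 0 of 8 passed in edgeR (2 unadjusted, 0 with DESeq2 or limma; median -0.32), with Tnfrsf13b from 192 to 320 CPM and Cxcr5 from 25.4 to 41.8 CPM. Of these 8, 3 were at least 2 times higher in WT replicate 1 than the mean of the other WT libraries. Among B cell progenitor genes 0 of 3 tested passed in edgeR (2 unadjusted, 1 with DESeq2, 0 with limma). Dntt ran from 0.759 to 1.83 CPM, and Vpreb3, with 4 to 25 counts, was not among those tested.

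In the MHC class II list 1 of 10 tested genes rose and 0 fell (median -0.23). H2-DMa, which helps load peptides, rose from 76.9 ± 4.17 CPM in WT to a mean of 104 CPM in KO (log2 fold change 0.44, SE 0.06, edgeR adjusted p = 0.0306). That call was lost when any single library was left out (adjusted p from 0.0519 to 0.136). Cd74, the invariant chain, stood at 192, 98.5 and 61.5 CPM in WT and 88.9, 78.6 and 81.3 CPM in KO. Of this list 7 genes were at least 2 times higher in WT replicate 1 than in the mean of the other WT libraries.

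**Figure D4:**
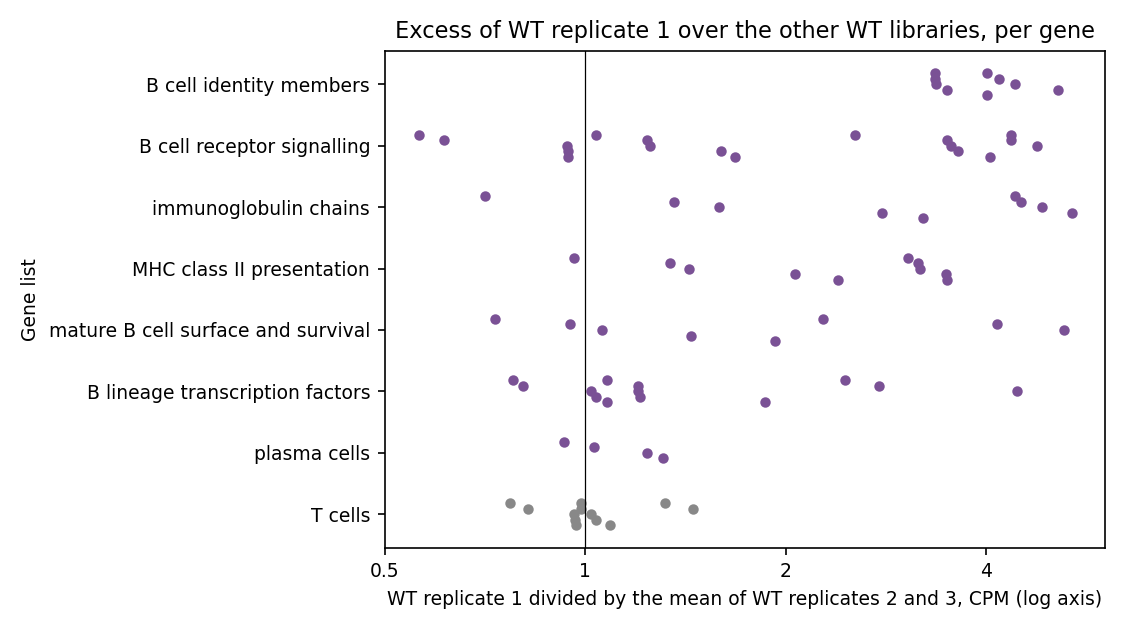
CPM in WT replicate 1 divided by the mean of WT replicates 2 and 3 (log axis), 1 point per tested gene, for B lineage lists (purple) and T cell genes (grey). The B cell identity genes run from 3.36 to 5.13, the T cell genes from 0.771 to 1.45, and the plasma cell genes from 0.931 to 1.31, while the other 5 B lineage lists hold points in both ranges.

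Marker lists of other cells were summed in the same way. The T cell list summed to 5270, 5710 and 5570 CPM in WT and 4800, 5340 and 5230 CPM in KO. Il2ra, the IL-2 receptor alpha chain, ran from 1830 to 2360 CPM and Lat, a T cell receptor adaptor, from 482 to 556 CPM. None of its 12 genes had WT replicate 1 at 2 times the other WT libraries. Of these 12, 0 passed in edgeR (4 unadjusted, 2 with DESeq2, 0 with limma), with a median log2 fold change of -0.08. The groups did not overlap for 7 of the 12 T cell genes, against 22.8% of all tested genes. The neutrophil list of 10 genes summed to 33.7, 9.03 and 5.94 CPM in WT and 309, 78.4 and 76.0 CPM in KO. In WT it had the same order of libraries as the B cell genes, and it was higher in every KO library than in every WT library. Of its 9 tested genes, 6 were at least 2 times higher in WT replicate 1 than the mean of the other WT libraries. In edgeR 0 of 9 tested neutrophil genes passed (9 unadjusted, 6 with DESeq2, 0 with limma), with a median log2 fold change of 3.40. S100a8, a granule alarmin, was at 10.1, 1.96 and 1.31 CPM in WT and 93.1, 20.6 and 21.4 CPM in KO, and its partner S100a9 at 10.9, 2.45 and 1.33 CPM and 113, 25.6 and 20.8 CPM. The macrophage and monocyte list summed to 34.8, 24.0 and 21.9 CPM in WT and 410, 109 and 120 CPM in KO, and 2 of 9 tested genes, C3ar1 and Mrc1, rose in edgeR. All 9 had an unadjusted p under 0.05 and no overlap between groups, 7 passed with DESeq2, 1 with limma on log2(TPM + 0.1) and 0 with limma on log2(TPM + 1). Lyz2, lysozyme, was at 18.4, 10.9 and 10.4 CPM in WT and 316, 74.7 and 84.4 CPM in KO, and Cd68 ran from 5.19 to 5.75 CPM in WT and 7.20 to 16.1 CPM in KO. The Mrc1 call was lost without any single library (adjusted p from 0.0754 to 0.18), and that of C3ar1 without WT replicate 2 or 3 or KO replicate 2 or 3 (0.0552 to 0.0762). KO replicate 1, the highest library in both of these lists, had 36.8 CPM of the summed B cell genes. The part of other cells in the B cell values was not tested.

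**Figure D5:**
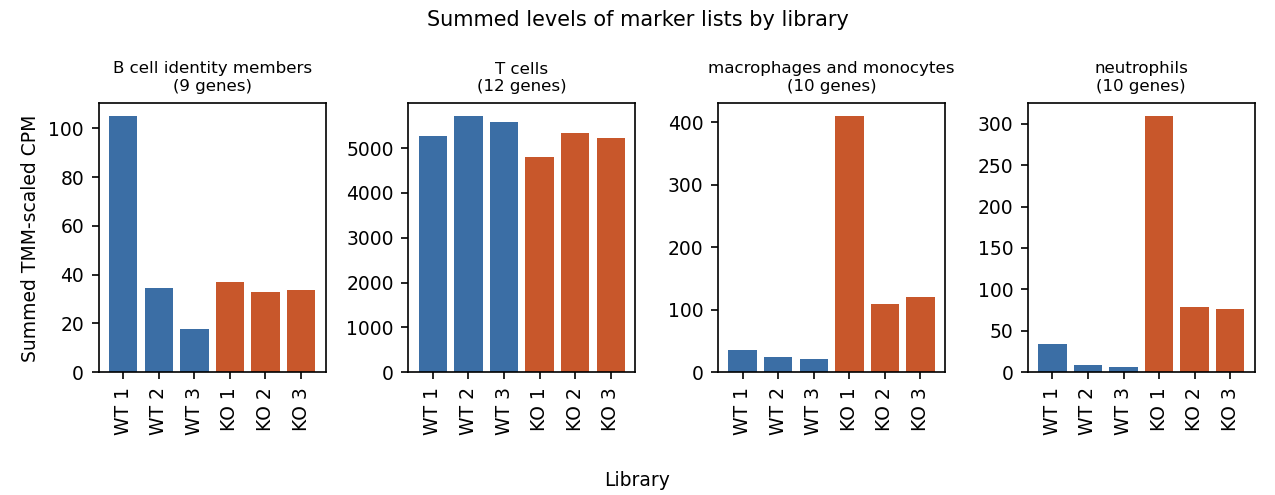
Summed TMM-scaled CPM of 4 marker lists in each library, WT in blue and KO in orange, each panel on its own scale from 0. The B cell identity genes peak in WT replicate 1 at 105 CPM, and the neutrophil genes in KO replicate 1 at 309 CPM.

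Markers of stromal and dendritic cells, known for Ebf1, Cr2 or Blk outside B cells, were read as well. All 7 stromal and follicular dendritic cell genes were too low to test and summed to between 0.209 and 0.784 CPM, with Col3a1, Dcn and Cxcl13 at 0 or 1 count in each library. Col1a1, a collagen gene, had 3 to 23 counts, most in KO replicate 1. Pdgfrb, a receptor of stromal cells, had 13, 4 and 1 counts in WT and 6, 1 and 1 in KO. WT replicate 1 was thus the highest and WT replicate 3 the lowest library in CPM for Pdgfrb, as for the members. At these counts WT replicate 1 was 6.76 times the mean of the other WT libraries. Other genes of the list went another way. Pdgfra was highest in WT replicate 2, with WT replicate 1 at 0.404 times the mean of the other WT libraries, and Cxcl12 was highest in KO replicate 3. The part of these cells, or of the T cells themselves, in the levels of Ebf1, Cr2 and Blk was not tested. Of the plasmacytoid dendritic cell genes, Siglech had 0 to 5 counts, Cox6a2 3 to 11 and Klk1 0 or 1, while Pacsin1, which made up most of that list, had 2142 counts or more. Ccr9 was highest in WT replicate 1, at 2.04 times the mean of the other WT libraries, and lowest in WT replicate 2 (log2 fold change 0.13, SE 0.4). Cox6a2 was highest in WT replicate 1 and lowest in WT replicate 3, and Pacsin1 was highest in KO replicate 1. In the conventional dendritic cell list, Itgax rose (log2 fold change 1.60, edgeR adjusted p = 0.0472). That call was lost without any single library other than KO replicate 1 (adjusted p from 0.0778 to 0.165, with log2 fold changes of 1.54 to 1.76). It was also lost with the stricter filter (edgeR adjusted p = 0.0571) and with limma on log2(TPM + 0.1) or log2(TPM + 1) (adjusted p = 0.0674 and 0.0877). The other 4 tested genes of that list did not pass, Batf3 among them with 96 to 191 counts. Clec9a and Cd209a had at most 1 count in a library. Of the CD8 T and NK cell genes 0 of 6 tested passed in edgeR (2 unadjusted, 2 with DESeq2, 0 with limma), with Cd8a at 28.8 to 70.4 CPM and Nkg7 at 31.1 to 57.4 CPM. Of the erythroid genes 0 of 1 tested passed, also unadjusted and with DESeq2 or limma, and Hbb-bs and Hba-a2 had at most 18.51 and 18 counts.

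Outside all lists, and from an average log2 CPM of 2 upward, the genes nearest in pattern to the summed members moved far less. By Pearson correlation of log2 CPM over the 6 libraries, among 9793 genes, they were Cbarp (r = 0.986), Atp5e (0.985), Cst3 (0.984), Qrsl1 (0.982) and Man2a1 (0.976). Between WT replicates 1 and 3 these 5 differed by 1.16-fold to 1.42-fold, against 5.99-fold for the summed members. Without WT replicates 1 and 3, the libraries farthest from the median, r ran from -0.51 to 0.72 over 4 libraries, so the likeness rested on them.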

How the data were processed

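The submitters' processing notes name FastQC and HISAT2, without versions; the counting program, genome build and annotation were not given in the sources used here. The authors deposited, per the file headers, a table of estimated counts and a table of TPM for each sample. From 23.5 to 25.2% of genes in a library had counts that were not whole. Estimated counts were rounded. Genes were kept by filterByExpr (12768 kept, 9131 not kept) and scaled by TMM. The test of KO against WT was the robust quasi-likelihood test in edgeR 4.0.16 (R 4.3.3), two-sided, with genotype as the only term. Benjamini-Hochberg adjustment ran over all tested genes, at a threshold of 0.05. DESeq2 1.42.0 and limma 3.58.1 on log2(TPM + 0.1) and log2(TPM + 1), other filters, a replicate block and fits without single libraries were alternatives.

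The 9 members, the gene lists and the comparisons were chosen with earlier results of these data known. The rule for named genes took all 9 members and, in each other list, called genes and the 2 with the highest mean TPM. It also took the 5 genes nearest in pattern. Any other gene named, whether of the B lineage (Blnk, Cd72, Spib), of T cells (Cd3e, Cd4, Foxp3) or of plasma, stromal or dendritic cells (Tnfrsf17, Jchain, Sdc1, Mzb1, Col3a1, Dcn, Cxcl13, Pdgfra, Cxcl12, Siglech, Klk1, Ccr9, Clec9a, Cd209a), was chosen after its values were seen. Deviations from group means, in log2 CPM, correlated at 0.192, 0.111 and 0.103 between same-numbered WT and KO samples, all above 0.1. Deviations sum to 0 within a group, so these values are not independent of each other. Whether the numbers in the titles pair the samples is left undecided. The main fit and the permutation tests are unpaired, and the fit with the replicate block is given beside them. WT replicate 2 correlated more with KO replicate 3 (0.13). Replicates of a group differed beyond sampling noise, least so KO replicates 2 and 3 (mean chi-square 3.55 per gene, against 14.9 to 43.5 in other pairs). The Wilson and Poisson intervals cover counting error only; those of log2 fold changes rest on the spread between replicates. Promoters are from RefSeq (GRCm38.p6). Python 3.11.15, pandas 2.3.3, scipy 1.17.1 and matplotlib 3.10.9 were used.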

Additional observations from a re-analysis of the deposited data

How the results depend on the processing

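None of the 9 members passed under any of the settings run, but the sign of their differences turned with 1 library. Without WT replicate 1 the log2 fold change was 0.43 for Cd79a, 0.52 for Cd79b, 0.50 for Ms4a1, 0.29 for Pax5, 0.61 for Ebf1, 0.65 for Blk, 0.40 for Cd22 and 0.27 for Cr2. Over the fits that each leave out 1 library, the lowest values of these genes were -1.05, -0.68, -0.93, -1.38, -0.57, -0.53, -1.00 and -0.99, each without WT replicate 3. Without WT replicate 1 and KO replicate 1 together, which was added once the data had been seen, the same 8 symbols stood at 0.39, 0.42, 0.64, 0.28, 0.47, 0.55, 0.19 and 0.20. Blk also turned with the replicate block (0.03) and with limma on log2(TPM + 0.1) (0.06). The summed difference of -18.0 CPM ran from -35.5 to 8.38 CPM without single libraries, was 7.17 CPM without both replicates 1, and was -18.0 CPM with the replicate block (exact permutation p = 0.75), from paired differences of -68.4, -1.67 and 16.0 CPM. The number of genes called over the whole table, 86, was 527 with DESeq2, 133 with no low-count filter, 177 with the replicate block, 36 with limma on log2(TPM + 1), 538 without both replicates 1, and 4 to 93 without single libraries (4 without KO replicate 3, 10 without KO replicate 2, 16 without WT replicate 3 and 27 without WT replicate 2). The cause of these changes was not tested. Cr2 fell out of the stricter filter. Depth limits Cr2 and Ebf1 most, with 15 and 34 counts in WT replicate 3.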

Other observations

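The deposited TPM and count tables did not track each other for all members. For Cd79a, Cd79b, Ms4a1 and Blk, TPM divided by CPM agreed between libraries within 1.03-fold. For Cr2 that ratio ran from 0.282 in KO replicate 1 to 1.17 in KO replicate 3, a 4.16-fold range. Accordingly Cr2 stood at 0.231, 0.228 and 1.06 TPM in KO replicates 1 to 3, from 41, 17 and 35 counts. The ratio ranged 1.94-fold for Cd22, 1.46-fold for Ebf1, 1.39-fold for Pax5 and 1.31-fold for Fcer2a.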
